A study of Homo sapiens with 2 samples.

Results

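The AP-1, EGR and MYC early-response factors are 10 genes chosen by name, FOS, FOSB, FOSL1, FOSL2, JUN, JUNB, JUND, EGR1, IER3 and MYC, out of 60671 genes in the count table. All 10 had at least 10 counts over both libraries and were among the 23446 genes for which a ratio was computed. RNA was sequenced from C4-2B, a human castration-resistant prostate cancer cell line, after vehicle or after overnight exposure to 1 µM (R)-9b, a small-molecule inhibitor of the tyrosine kinase ACK1. The RNA sequencing methods of the study state neither the dose nor the time, which come from the labels, and they do not name the vehicle, which was DMSO in other experiments of the study with this line. Each condition had 1 library, so no difference has a replicate check and no p-value is given. Cell culture, library and treatment therefore cannot be told apart in any difference.

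AP-1 is a dimeric transcription factor that a JUN protein forms with itself, with another JUN protein or with a FOS protein, and it binds short DNA elements known as TRE and CRE. FOS, FOSB, JUN, JUNB, EGR1, IER3 and MYC are classical early-response genes, whose transcripts appear soon after growth factors, serum or stress activate MAP kinases and decay quickly. JUND is made more steadily, and AP-1 is known in prostate cancer cells for its links to stress signalling and to the androgen receptor.

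The vehicle library held 65207444 counts and the (R)-9b library 57653965 counts. Levels are given as CPM, the counts relative to library size, after TMM scaling, which corrects for library make-up, and ratios are (R)-9b over vehicle on the log2 scale with an exact 95% interval that covers counting error only. Mitochondrially encoded genes took 1.49% of the counts with vehicle and 9.54% with (R)-9b, and the median log2 ratio of the genes tested was -0.0049 after scaling, the value to read the medians of the gene lists against. Of the genes with 1 to 20 counts, 72.2% with vehicle and 70.3% with (R)-9b had an even count. Intervals of the members were therefore also computed after halving their counts. The labels call the cells breast cancer, whereas 8 prostate luminal markers summed to 5036 CPM with vehicle and 9418 CPM with (R)-9b. The breast markers SCGB2A2 and ANKRD30A were at 0 in both libraries, ESR1 had 2 counts in each, and the 7 breast markers summed to 152 and 207 CPM, nearly all of it ERBB2. Among 13 immune, stromal and endothelial markers PTPRC was at 0 in both libraries, CD3E had 2 and 0 counts, and the sum was 33.1 CPM with vehicle and 48.6 CPM with (R)-9b, mostly COL1A1. The part of these markers in the ratios below was not tested.

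JUNB, EGR1, IER3 and FOS were higher in the (R)-9b library, JUN, JUND and FOSB were lower, and FOSL1, FOSL2 and MYC had intervals that include 0. A gene was called beyond 2-fold where its whole interval lay past that fold. By this rule 2 of the 10 members were higher, JUNB and IER3, beside 4.2% of all genes tested. Another 2 members were lower, JUN and JUND, beside 3.44% of all genes tested. With the looser rule that the interval lies wholly on one side of 0, 4 members were higher beside 29.8% of all genes tested and 3 were lower beside 31.1%, so these shares of the members were close to the background. An abundant gene has a narrow interval and clears 0 at a small ratio, and 10240 of the 23446 genes tested had at least 1000 counts. These background shares are not matched for abundance, here or for the gene lists below. An assumed coefficient of variation of 0.1 between samples took JUNB and JUND off the calls beyond 2-fold and one of 0.2 took JUN off too, while halved counts took IER3 off. The log2 ratios from the gene counts ran from -1.75 for JUN to 2.33 for IER3 with a median of -0.03. The call of IER3 rests on the gene counts alone. From the authors' estimated counts per transcript its log2 ratio was -0.17 with an interval from -0.53 to 0.18, as described further on.

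**Figure D1:**
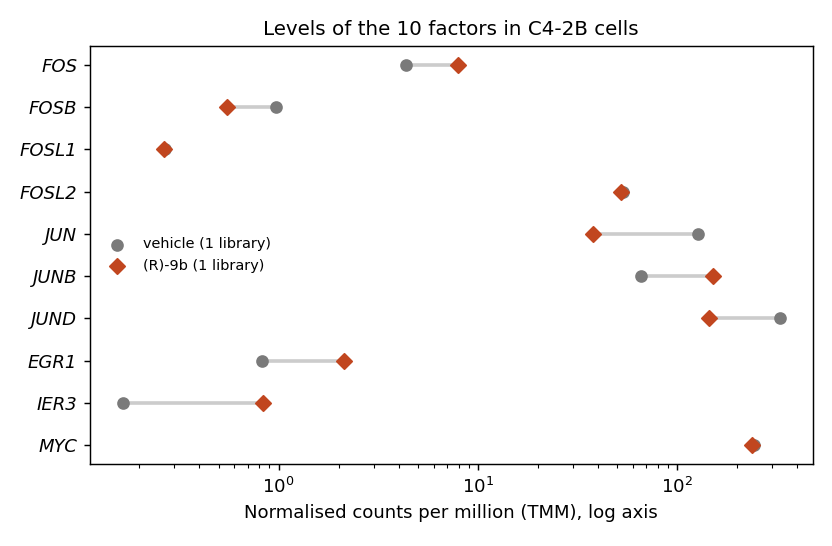
TMM-scaled CPM of each of the 10 genes on a log axis, with a grey circle for the vehicle library and a red diamond for the (R)-9b library. JUN and JUND lie further left with (R)-9b, JUNB lies further right, and the symbols of MYC, FOSL1 and FOSL2 nearly coincide.

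**Figure D2:**
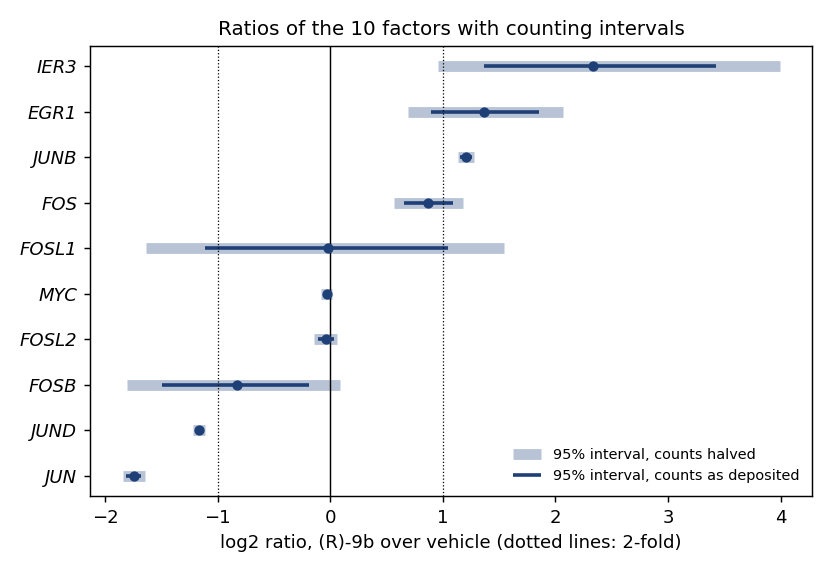
log2 ratio of (R)-9b over vehicle for each gene, with thin bars for the exact 95% counting interval, thick pale bars for the interval after halving the counts, and dotted lines at 2-fold. Whole intervals of JUN and JUND lie left of the left dotted line and that of JUNB right of the other, while the pale bar of IER3 starts at 0.96, inside 2-fold.

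The JUN family held the largest differences in counts. JUN (ENSG00000177606) encodes c-Jun, the AP-1 subunit that JNK kinases phosphorylate, and is a gene of 1 exon at chr1:58780788-58784327 on the minus strand of GRCh38. It had 8440 counts with vehicle and 2132 counts with (R)-9b, or 126.8 and 37.8 CPM. The level was thus 3.36-fold lower with (R)-9b, at a log2 ratio of -1.75 with an interval from -1.82 to -1.68. Of the 10240 genes with at least 1000 counts, 0.615% had a ratio lower than that of JUN.

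JUND (ENSG00000130522) encodes the JUN protein that is made most steadily and lies at chr19:18279760-18281622 on the minus strand. Its 21734 counts with vehicle and 8193 counts with (R)-9b correspond to 326.4 and 145.1 CPM. The ratio was 2.25-fold lower, a log2 ratio of -1.17 with an interval from -1.21 to -1.13. In the (R)-9b library JUND lost its place as the most abundant of the 10 genes per length, as described further on.

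JUNB (ENSG00000171223) encodes a JUN protein that often opposes c-Jun at shared targets, and it differed the other way. The gene has 1 exon at chr19:12791496-12793315 on the plus strand. It had 4384 counts with vehicle and 8570 counts with (R)-9b, or 65.8 and 151.8 CPM. Its level was 2.31-fold higher, at a log2 ratio of 1.20 with an interval from 1.15 to 1.26, and 1.73% of the genes with at least 1000 counts had a higher ratio. HOOK2 on the opposite strand shares 259 exon bases with JUNB, 14.2% of the length of JUNB, and reads of the overlap cannot be told apart without strand. The strand setting of the counting is not given in the sources used here. The paper states that only unambiguous reads were counted, so reads that fit both genes would be left out. HOOK2 as a whole had 12358 counts with vehicle and 9056 with (R)-9b before scaling, and the part of the shared bases in the JUNB counts was not tested.

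The ratio of JUN genes to each other within a library does not depend on the scaling between libraries. Per kilobase of annotated exon, JUNB stood at 1.01 times the level of JUN with vehicle and at 7.82 times with (R)-9b. This ratio was 7.74 times as large with (R)-9b, with an interval from 7.29 to 8.22. JUNB stood at 0.206 times the level of JUND with vehicle and at 1.07 times with (R)-9b, a change of 5.19 times with an interval from 4.96 to 5.42. JUN to JUND moved less, from 0.204 to 0.137, which is 0.670 times the vehicle value with an interval from 0.635 to 0.707. The authors' estimated transcript counts came to 0.515 of the gene count for JUNB with vehicle and 0.504 with (R)-9b. For JUN this quotient was 0.384 and 0.394, and for JUND 0.371 and 0.368. The levels of JUNB beside JUN and JUND therefore depend on the way of counting, which these intervals do not cover.

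The make-up of the JUN family by gene counts shifted accordingly. With vehicle JUND made up 70.9% of the family per length, JUNB 14.6% and JUN 14.5%. With (R)-9b JUNB made up 48.5%, JUND 45.3% and JUN 6.20%. The 3 genes together had 34558 counts with vehicle and 18895 with (R)-9b, a log2 ratio of -0.63 with an interval from -0.66 to -0.61, so the higher JUNB did not make up in counts for the lower JUN and JUND.

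**Figure D3:**
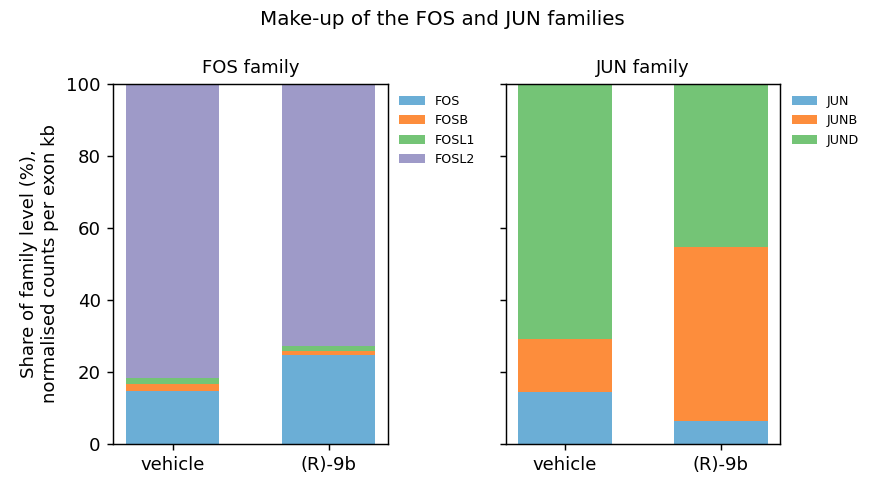
Stacked bars of the share, in percent, that each gene takes of its family's summed level per kilobase of annotated exon, in the vehicle and the (R)-9b library, for the FOS family on the left and the JUN family on the right. JUNB widens from 14.6% to 48.5% of the JUN family, while FOSL2 keeps most of the FOS family in both libraries at 81.8% and 73.0%.

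The start regions of these genes were read from the RefSeq promoter table of GRCh38.p14, from 250 bases before to 50 bases after its start. Of the 10 members, 7 had a window that was searched. This RefSeq start can differ from that of the gene positions given here, which are from GENCODE. Motifs were searched on both strands as exact letters. The TRE (TGACTCA) was found in 4.96% of 34796 distinct promoters of this length, its 8-base variant (TGACATCA) in 2.60%, the CRE (TGACGTCA) in 1.84%, and the CRE core (TGACGT), which is contained in the CRE, in 7.97%. The EGR site (GCGGGGGCG or GCGTGGGCG) was in 5.76% and the E-box (CACGTG) in 7.20% of all promoters and in none of the 7 windows, and JUNB matched none of the motifs. The matches of JUN and JUND are shown because these are the JUN genes that were lower, with the motif in capitals and both on the minus strand. The JUN match begins 67 bases before the RefSeq start at chr1:58784096-58784125, which lies inside the exon given above for JUN. The JUND matches begin 200 and 87 bases before the RefSeq start at chr19:18281804-18281833 and chr19:18281692-18281721. In the last of them the CRE core is read on the other strand.
JUN TRE variant: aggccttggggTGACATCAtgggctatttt
JUND CRE: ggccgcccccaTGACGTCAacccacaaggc
JUND CRE core: tgcaaatgagcgACGTCAcccgcacccaat
A match is a run of letters in the reference and was not measured as a binding site in these cells.

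In the FOS family the only abundant gene was FOSL2, and it hardly differed. FOS (ENSG00000170345) encodes c-Fos, which cannot pair with itself and acts through JUN proteins, and lies at chr14:75278774-75282230 on the plus strand. It had 289 counts with vehicle and 448 with (R)-9b, or 4.34 and 7.93 CPM. Its level was 1.83-fold higher, a log2 ratio of 0.87 with an interval from 0.65 to 1.09, which includes 2-fold.

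FOSB (ENSG00000125740) encodes a c-Fos relative known for a stable short form and lies at chr19:45467995-45475179 on the plus strand. It had 65 counts with vehicle and 31 with (R)-9b, or 0.976 and 0.549 CPM. The log2 ratio was -0.83 with an interval from -1.50 to -0.19, and with halved counts the interval reached from -1.81 to 0.08. FOSB was therefore not separable from no difference once reads were taken as pairs.

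FOSL1 and FOSL2 encode Fra-1 and Fra-2, FOS proteins without the strong activation domain of c-Fos. FOSL1 (chr11:65892049-65900573, minus strand) had 18 counts with vehicle and 15 with (R)-9b, at a log2 ratio of -0.03 with an interval from -1.12 to 1.05. At this depth a difference in FOSL1 within 2-fold was not detectable. FOSL2 (chr2:28392448-28417312, plus strand) had 3565 and 2936 counts, or 53.5 and 52.0 CPM. Its log2 ratio of -0.04 had an interval from -0.11 to 0.03, and lay below 0 only when scaled by total counts, at -0.10.

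Within the family FOS stood at 0.179 times the level of FOSL2 per length with vehicle and at 0.337 times with (R)-9b, a change of 1.88 times with an interval from 1.61 to 2.21. FOSB to FOSL2 went from 0.0235 to 0.0136, which is 0.579 times the vehicle value with an interval from 0.364 to 0.904. That interval takes the counts as deposited and was not computed with halved counts, with which FOSB was not separable from no difference. FOS took 14.7% of the family per length with vehicle and 24.6% with (R)-9b, while FOSB went from 1.92% to 0.993% and FOSL1 from 1.57% to 1.41%. The length joins all annotated exons of a gene, also those of transcripts with an estimate of 0. Such transcripts were 8 of 10 for FOS, 8 of 13 for FOSB and 4 of 5 for FOSL1. The levels of these genes per length may therefore be understated beside FOSL2. The summed FOS family had 3937 and 3430 counts, a log2 ratio of 0.04 with an interval from -0.03 to 0.11. In sum the FOS family was thus close to equal in both libraries, whereas the JUN family was lower with (R)-9b.

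The matches in the FOS, FOSB and FOSL2 windows are shown side by side because each of the 3 windows holds a CRE core. The motif is in capitals and all are on the plus strand. The FOS match begins 64 bases before the RefSeq start at chr14:75278752-75278781, the FOSB match 60 bases before it at chr19:45467924-45467953, and the FOSL2 core 66 bases before it at chr2:28392780-28392809. FOSL2 also holds a TRE that begins at base 5 from the RefSeq start, at chr2:28392851-28392879. Both FOSL2 matches lie inside the gene position given above for FOSL2.
FOS CRE core: tggttgagcccgTGACGTttacactcattc
FOSB CRE core: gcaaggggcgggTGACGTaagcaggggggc
FOSL2 CRE core: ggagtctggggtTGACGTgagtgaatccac
FOSL2 TRE: tgccattgtagTGACTCAtctcgggcaga
These are runs of letters in the reference, and their part in the levels was not tested.

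EGR1 (ENSG00000120738) encodes a zinc finger factor that serum response factor switches on through CArG boxes, and lies at chr5:138465490-138469315 on the plus strand. It had 55 counts with vehicle and 120 counts with (R)-9b, or 0.826 and 2.13 CPM. The level was 2.57-fold higher, a log2 ratio of 1.36, with an interval from 0.89 to 1.85 and from 0.69 to 2.07 with halved counts. The difference was beyond counting error but not wholly beyond 2-fold. EGR1 stood at 0.196 times the level of FOS per length with vehicle and at 0.276 times with (R)-9b, a change of 1.41 times with an interval from 0.978 to 2.04 that includes 1.
The EGR1 window held 2 matches to the CArG box, a motif present in 1.30% of all promoters, and they are shown because EGR1 was the only member among the 7 searched that had one. They begin 105 and 83 bases before the start, at chr5:138465364-138465393 and chr5:138465386-138465415 on the plus strand, with the box in capitals.
EGR1 CArG box, distal: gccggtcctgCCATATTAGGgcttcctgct
EGR1 CArG box, proximal: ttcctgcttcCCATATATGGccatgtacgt
The same window also held CRE cores that begin 136 and 67 bases before the start.

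The other EGR genes had few counts. EGR2 had 10 counts with vehicle and 4 with (R)-9b, at a log2 ratio of -1.08 with an interval from -3.21 to 0.71. EGR3 had 13 and 4 counts, at -1.46 with an interval from -3.54 to 0.23, and EGR4 was at 0 in both libraries, where a count of 0 allows up to 3 counts. NAB1 and NAB2, corepressors that bind EGR proteins, had log2 ratios of 0.63 and 0.49, and both intervals lay above 0. Of the 4 genes tested in this group 2 were above 0, beside 29.8% of all genes, none was below, beside 31.1%, and none was beyond 2-fold.

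IER3 (ENSG00000137331) encodes a short-lived protein that modulates cell survival after stress and lies at chr6:30743199-30744554 on the minus strand. It had 11 counts with vehicle and 47 with (R)-9b, or 0.165 and 0.832 CPM. The level was 5.04-fold higher, a log2 ratio of 2.33, with an interval from 1.36 to 3.43 and from 0.96 to 3.99 with halved counts. The antisense gene IER3-AS1 shares 359 exon bases with IER3, 26.5% of its length, and had 24 counts with vehicle and 23 with (R)-9b.

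The transcript table gave a different picture of IER3. The 2 transcripts under the gene identifier used in the count table were at 0 in both libraries. The estimated counts stood under 2 other gene identifiers of the same symbol, which the count table does not list. IER3-203 (ENSG00000206478) had 61.6 estimated counts with vehicle and 63.2 with (R)-9b, and IER3-212 (ENSG00000237155) had 99.4 and 56.8. In sum there were 161 estimated counts with vehicle and 120 with (R)-9b, a log2 ratio of -0.17 with an interval from -0.53 to 0.18. The higher IER3 in the gene counts was therefore not seen in the transcript estimates, and the cause was not tested.

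MYC (ENSG00000136997) encodes the factor that pairs with MAX to drive growth and ribosome genes and lies at chr8:127735434-127741434 on the plus strand. It had 16191 counts with vehicle and 13424 counts with (R)-9b, or 243.2 and 237.7 CPM. The log2 ratio was -0.03 with an interval whose ends are -0.066 and 0.0005, so any difference between the libraries was small as far as counting goes. MYC sat in the middle of the abundant genes, 50.2% of which had a lower ratio. Its interval lay below 0 when scaled by total counts, at -0.09, and by DESeq2 size factors, at -0.05.

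The levels of the 10 genes by gene counts were ranked per kilobase of annotated exon, since longer transcripts give more counts. With vehicle JUND led at 175.2 CPM per kilobase, followed by MYC at 81.0, JUNB at 36.2 and JUN at 35.8, and the last pair did not differ beyond counting error. With (R)-9b JUNB led at 83.4, followed by MYC at 79.2, JUND at 77.9 and JUN at 10.7. The ratios of MYC to JUNB and to JUND were given no interval, so the place of MYC beside them is not settled. FOSL2 was the fifth in both libraries at 7.48 and 7.27, and FOS the next at 1.34 and 2.45. EGR1, FOSB, FOSL1 and IER3 stayed below 1 in both libraries, with IER3 at 0.122 and 0.614. The transcript estimates of IER3 came to 14.6 times its gene count with vehicle and 2.55 times with (R)-9b. The place of IER3 in this ranking is therefore uncertain.

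The estimated transcript counts showed which transcripts carry the members. JUN, JUNB and EGR1 each had 1 transcript, and JUND-201 carried 93.1% of JUND with vehicle and 92.9% with (R)-9b. FOS-201 carried 97.6% and 100% of FOS. FOSL2-201 carried 89.6% of FOSL2 with vehicle and 84.3% with (R)-9b, and FOSL2-202 carried 10.4% and 13.2%. For MYC, MYC-202 made up 62.4% and 61.8%, MYC-205 25.2% and 25.5%, and MYC-210 11.5% and 11.9%, so the mixture of MYC transcripts was nearly alike in both libraries. FOSB had only 24 and 11 estimated counts spread over 5 transcripts, too few to give shares.

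Of 14 other bZIP genes whose proteins can pair with FOS or JUN, 3 had an interval above 0, beside 29.8% of all genes tested, 8 below, beside 31.1%, and 3 including 0, and the median log2 ratio was -0.31. Beyond 2-fold 2 were lower, beside 3.44% of all genes, and 0 higher, beside 4.2%. ATF3, a stress-induced partner of JUN proteins, had 24273 counts with vehicle and 1754 with (R)-9b, a log2 ratio of -3.55. MAFF, a small MAF protein, had 619 and 119 counts, a log2 ratio of -2.14.

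In the MAX network 5 of 11 genes tested were above 0, beside 29.8% of all genes, and 6 below, beside 31.1%, none was beyond 2-fold, and the median was -0.22. MAX, the partner of MYC, had 3163 and 3033 counts and a log2 ratio of 0.18. MXI1 and MXD1, which compete with MYC for MAX, had log2 ratios of -0.97 and -0.49. MYCN was at 0 in both libraries, so MYC was the main MYC gene measured beside MYCL, which had 1028 and 599 counts.

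Of 34 other early-response genes tested, 17 were above 0, beside 29.8% of all genes, 14 below, beside 31.1%, and 3 included 0, with a median of 0.11. Beyond 2-fold 4 were higher, beside 4.2% of all genes, among them SIK1, a kinase induced by cAMP, with 39 and 151 counts and a log2 ratio of 2.19, and ID1 and ID3, inhibitors of basic helix-loop-helix factors, at 1.99 and 1.22. The 5 that were lower, beside 3.44% of all genes, included GADD45A and PPP1R15A, both stress-response genes, at -1.92 and -1.81, and CCN1, a matrix-associated protein, at -1.43.

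Of 25 genes for serum response factor, its ETS partners and the MAP kinase pathway, 9 were above 0, beside 29.8% of all genes, and 15 below, beside 31.1%, with a median of -0.18, and none was beyond 2-fold. Of 22 textbook AP-1 targets 15 were tested, and 4 were above 0, close to the 29.8% of all genes, 6 below, beside 31.1%, and 5 included 0, with a median of -0.09. MMP13, a collagenase, had 643 counts with vehicle and 65 with (R)-9b, a log2 ratio of -3.07. MT2A, a metallothionein, and HMOX1, which degrades heme, had log2 ratios of -1.76 and -1.67. MMP7, a small matrix protease, had 8 and 40 counts and a log2 ratio of 2.56, and was the 1 gene of the list that was higher beyond 2-fold, beside 4.2% of all genes, while 4 were lower, beside 3.44%. The MMP7 interval from 1.44 to 3.87 rests on few counts and was not computed with halved counts. Several of these genes answer to other factors too, and the part of AP-1 was not tested.

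Of 57 textbook MYC targets tested, 34 were above 0, beside 29.8% of all genes, 16 below, close to the 31.1% of all genes, and 7 included 0, with a median of 0.14. Most of these targets were abundant and could clear 0 at a small ratio, and no share of genes of like abundance was computed. SORD and SLC29A2, an enzyme of the polyol pathway and a nucleoside transporter, had log2 ratios of 1.22 and 1.09, and HK2, a hexokinase, had -1.25. These were the 3 genes of the list beyond 2-fold, 2 higher beside 4.2% of all genes and 1 lower beside 3.44%.

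**Figure D4:**
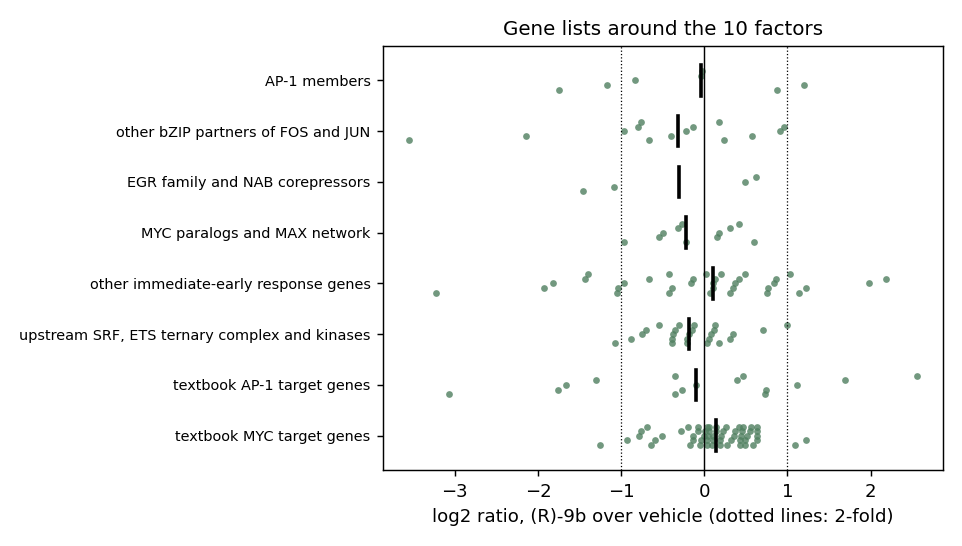
log2 ratio of (R)-9b over vehicle for each tested gene of the lists, 1 point per gene, with the list's median as a black bar and dotted lines at 2-fold. The point furthest left is ATF3 at -3.55, and the medians of the lists plotted run from -0.31 for other bZIP partners to 0.14 for MYC targets.

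**Figure D5:**
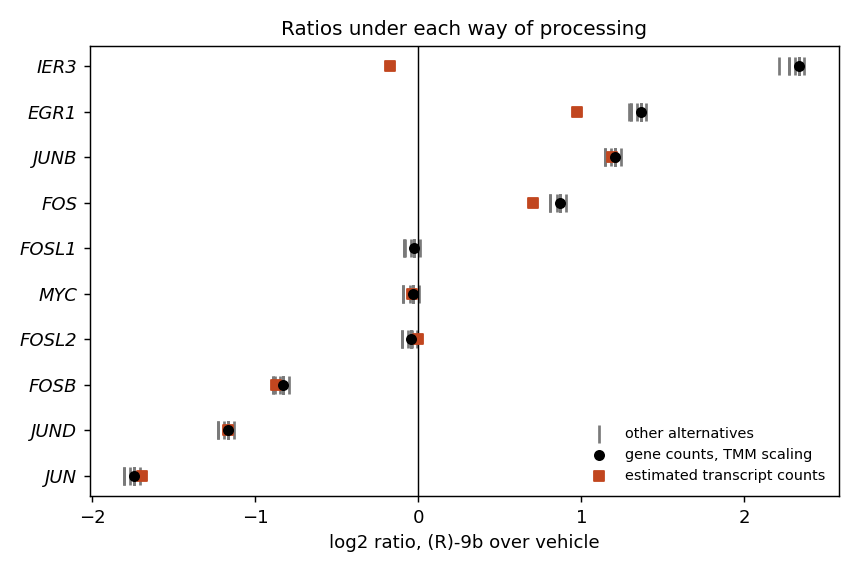
log2 ratio of each of the 10 genes from gene counts with TMM scaling as black points, from the estimated transcript counts as red squares, and from the other ways of scaling and filtering as grey ticks. IER3 lies at 2.33 from gene counts and at -0.17 from transcript estimates, while JUN, JUNB and JUND lie close to their black points throughout.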

How the data were processed

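Poly-A-selected RNA of 2 C4-2B samples, labelled vehicle and 1 µM (R)-9b, was sequenced by the authors with paired reads. The submitters' processing notes name STAR 2.5.1a, featureCounts 1.4.6-p5 and Salmon 0.8.2 with hg38, while the paper names another STAR release. The authors deposited whole-number counts per gene, without normalization, and separately CPM and moderated log2 CPM per gene. The paper describes the counted reads as uniquely aligned and unambiguous. The estimated counts per transcript, also deposited, were summed per gene and served as an alternative.

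Repeated lines were dropped, leaving 60671 genes. Counts were scaled with TMM (edgeR 4.0.16, R 4.3.3), and exact (Clopper-Pearson) 95% intervals were computed with scipy 1.17.1 for the 23446 genes whose counts in the 2 libraries summed to at least 10. Genes were called where the whole interval lay beyond 2-fold, or on one side of 0. The intervals cover counting error only, and no model of replicate spread was possible with 1 library per condition. The scripts were tested on simulated counts drawn independently. Those lack the excess of even counts seen in the libraries, so the test does not show that the intervals hold for these data. Exon lengths and positions came from GENCODE 29 (GRCh38), promoter windows from RefSeq (GRCh38.p14).

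The members and the gene lists were chosen with earlier results of these data known. Named are all members, EGR2, EGR3, EGR4, NAB1, NAB2, MAX, MXD1, MXI1, ATF3, cell type markers (1 of those listed is not reported here), and from each other list at most 3 genes higher and 3 lower beyond 2-fold, ranked by the interval end nearest 0. MYCN, MYCL and the genes that overlap members were named after their values were seen. Alternatives were other scalings (total counts, DESeq2 1.42.0, upper quartile, TMM without mitochondrial genes), the deposited CPM and log2 CPM, other minimum counts, halved counts, an assumed coefficient of variation of 0.1 or 0.2, and the transcript estimates. All per-sample columns belonged to the 2 libraries.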

Additional observations from a re-analysis of the deposited data

Results flagged for a closer look

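IER3 stood out because signal for it lay in a table outside the gene counts. Among the transcript estimates, 161 estimated counts with vehicle and 120 with (R)-9b stood under 2 gene identifiers of that symbol which the gene count table does not list, while the transcripts under the listed identifier were at 0 in both libraries. The estimates come to 14.6 times the gene count with vehicle and 2.55 times with (R)-9b, whereas over 9998 genes the median of this quotient was 0.363 and 0.361. The gene counts of 11 and 47 and the estimates thus gave ratios of opposite sign, the one from the estimates with an interval that includes 0, and the cause was not tested.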

How the results depend on the processing

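Among the members called, IER3 alone changed sign, to a log2 ratio of -0.17 with estimated transcript counts, and lay between 2.21 and 2.37 under its other alternatives. MYC and FOSL1, whose intervals include 0, came to 0.004 and 0.01 with upper quartile scaling. JUN lay between -1.81 and -1.70, JUNB between 1.14 and 1.24, JUND between -1.23 and -1.13, FOS between 0.71 and 0.91, EGR1 between 0.97 and 1.4, FOSB between -0.89 and -0.79, and MYC between -0.09 and 0.004. The 2 members higher beyond 2-fold became 1 with a coefficient of variation of 0.1 or 0.2 (IER3), and 1 with halved counts or estimated transcript counts (JUNB). The 2 lower became 1 with a coefficient of variation of 0.1 (JUN) and 0 with 0.2, where JUN had an interval from -2.55 to -0.94. The 3 members below 0 became 5 with total counts, by MYC and FOSL2, 4 with DESeq2 size factors, by MYC, 6 by the point ratio alone, and 2 with a coefficient of variation of 0.2, halved counts or transcript estimates, each without FOSB. The 4 above 0 became 3 with transcript estimates, without IER3. FOSL1 had too few counts for a value with a minimum of 50 or from transcript estimates. The deposited CPM and log2 CPM have no interval, so no calls were made from them. No paired analysis was possible because each condition had 1 library, and for the same reason no replicate could be left out. Depth limits FOSL1, FOSB, EGR1 and the gene counts of IER3, which also leave out the estimates under its other identifiers.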
